A study of Bos taurus with 8 samples.

Results

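The bovine chromosome 13 loci described here are all stretches of that chromosome tiled on a 2-colour array of DNA methylation in the arcuate nucleus. They comprise 263 of the 10249 probes of the array that are not controls, chosen only by the chromosome given for each probe in the scanner files (Btau_3.1). Split wherever neighbouring starts lay more than 20000 bp apart, the probes formed 6 of the 104 tiled loci of the array, between positions 37815187 and 68341386. Since the files used here give neither the gene nor the sequence of a probe, loci carry their start positions as names, and their place relative to genes, exons, introns and UTRs was not analysed here. For the same reason the labelled tissue was not checked against marker genes. The 4 high-gain heifers (heifers 1 to 4) were fed for a target gain of 1 kg per day and the 4 low-gain heifers (heifers 5 to 8) for 0.5 kg per day, in both groups between 4.5 and 8.5 months of age. All were females, and at 8.5 months each gave 1 sample of the arcuate nucleus, a tissue of several cell types, and so 1 array. From each heifer, DNA captured by a methyl-CpG binding domain protein (the enriched channel) and total DNA (the input channel) were hybridised together.

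In mammals most DNA methylation sits on cytosines followed by guanine (CpG). It is read by proteins with a methyl-CpG binding domain, and in promoters it usually goes with a silent gene. The capture protein holds double-stranded fragments in proportion to the number and density of their methylated CpGs, so a ratio of captured to total DNA depends on both methylation and CpG content. The arcuate nucleus senses hormones and nutrients that reflect energy reserves and takes part in the onset of puberty, which in heifers is brought forward by faster gain before puberty. The comparison asks whether the feeding schedule alters methylation in this tissue.

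Each value below is log2(enriched/input) of the processed signals minus the median of that array over all probes that are not controls. The median probe of an array therefore stands at 0, which does not mean unmethylated, and 1 unit is a 2-fold step in the ratio. Alternative settings that kept only part of the probes, by background or input brightness, were centred on the median of the kept probes instead. Differences are high-gain minus low-gain, and adjusted p-values are from limma with Benjamini-Hochberg adjustment over the whole array (10249 probes, 960 regions or 100 loci), with 0.05 as the threshold.

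The arrays differed in how much chromosome 13 signal stood clear of background. Enriched signals stood well above background at 69.2%, 73.0%, 69.6% and 76.4% of the 263 probes in high-gain heifers 1 to 4, against 62.0%, 65.4%, 66.9% and 49.0% in low-gain heifers 5 to 8. The groups did not overlap, with means of 72.1% ± 3.38 for high-gain, against 60.8% ± 8.13 for low-gain (SD, n = 4 each). A two-sided exact permutation test gave p = 0.0286, the smallest that 4 against 4 allows, and 0.0571 after adjustment over the shares of both channels. The difference was 11.2 percentage points, 7.41 in slide row 1, 15.02 in slide row 2 and 7.29 without low-gain heifer 8. All other probes of the array showed it too, at 73.9% ± 2.27 for high-gain, against 62.3% ± 8.60 for low-gain (SD, n = 4 each). In the input channel the chromosome 13 shares were 83.9% ± 6.87 and 83.0% ± 2.43 (SD, n = 4 each, high-gain and low-gain, two-sided exact permutation p = 0.914). The part of these shares in the differences below was not tested beyond the probe filters and the grouping by signal reported with them.

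Heifers of 1 group did not share a chromosome 13 profile to the same degree. Across the 263 probes, which are not independent replicates, pairs of high-gain heifers had r = -0.088 to 0.17. Low-gain heifers 6, 7 and 8 correlated at 0.54 to 0.67, while low-gain heifer 5 correlated with these 3 at 0.0094 to 0.081 and with high-gain heifers 1, 2, 3 and 4 at 0.16, 0.18, 0.077 and 0.20. High-gain heifer 3 correlated with low-gain heifers 6, 7 and 8 at 0.15, 0.22 and 0.28, the last 2 above every pair of high-gain heifers. Over the other probes of the array low-gain heifers 6, 7 and 8 likewise correlated at 0.58 to 0.67 and low-gain heifer 5 with them at 0.091 to 0.14. The spread over probes also differed, with an SD of the log2 ratio from 0.70 in high-gain heifer 1 to 1.52 in high-gain heifer 4, against 0.94 in low-gain heifer 5 to 1.62 in low-gain heifer 8. For some of the results in which low-gain heifer 5 lay apart from its group, the value without that heifer is also given.

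All 6 locus means lay within 0.2 log2 units of the array median when both groups were averaged. The locus from 55717287 to 55730264 (9 probes over 12.98 kb) had the highest mean, 0.20 with a standard error of 0.080, and that from 63743531 to 63778481 (53 probes over 35.0 kb) followed at 0.077 (standard error 0.066). The locus from 51950175 to 51968338 (43 probes over 18.2 kb) lay at -0.032 and that from 68309110 to 68341386 (73 probes over 32.3 kb) at -0.079. Those from 37815187 to 37858907 (75 probes over 43.7 kb) and from 52668311 to 52675432 (10 probes over 7.12 kb) lay at -0.096 and -0.16. None of the 6 passed the test against 0 (limma, smallest adjusted p = 0.064, at 55717287), where 40% of the 100 loci of the array did (7% above and 33% below).

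**Figure D1:**
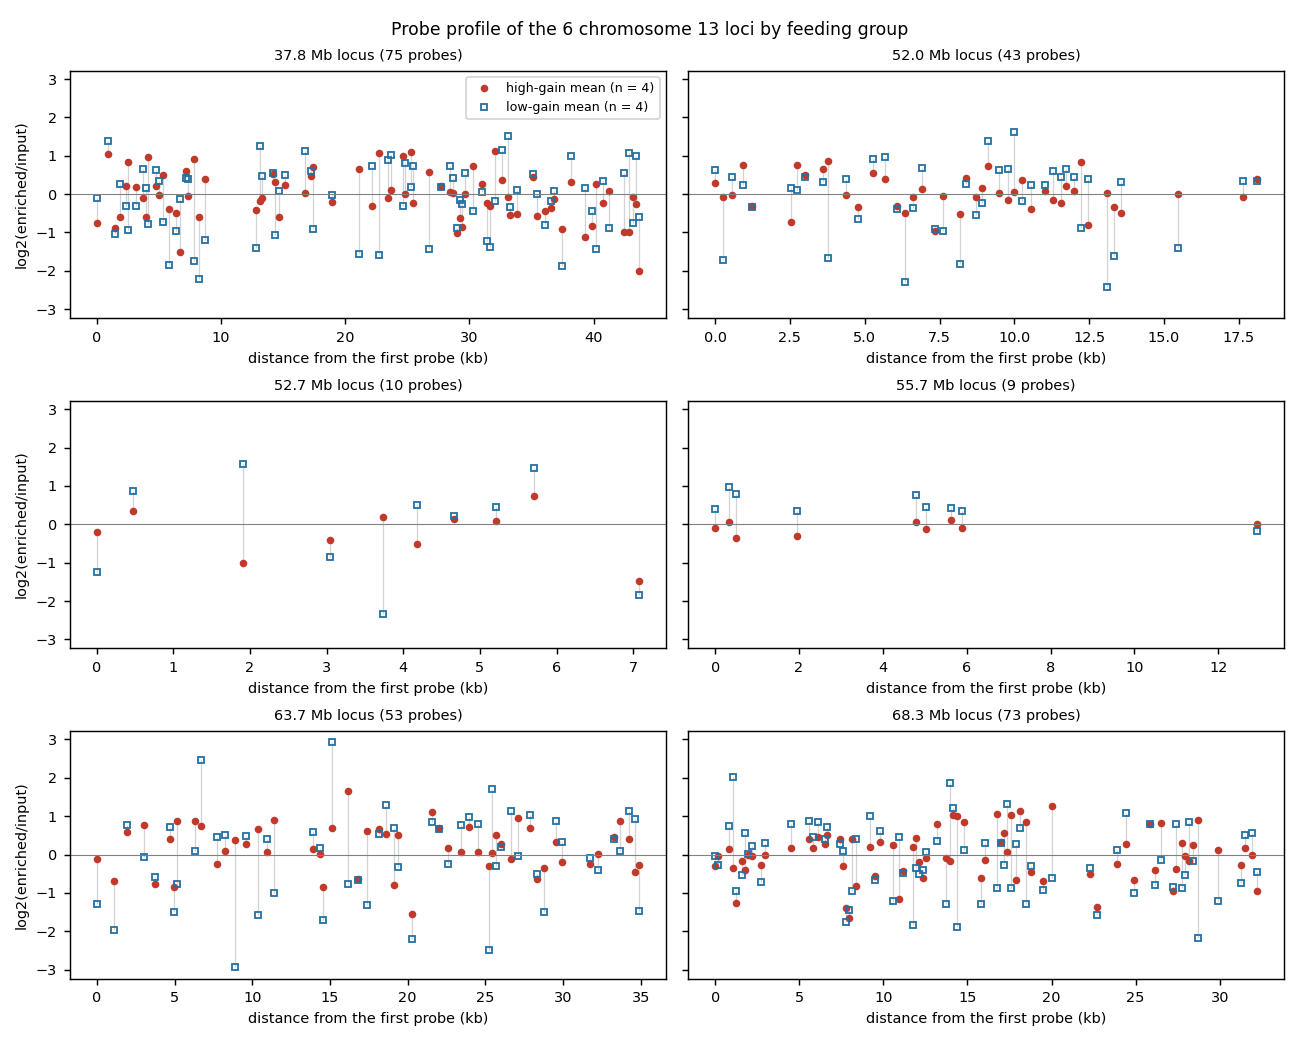
Group means of log2(enriched/input) at each chromosome 13 probe (vertical axis, array median = 0) against the distance from the first probe of its locus in kb (horizontal axis), with 1 panel per locus, filled circles for high-gain, open squares for low-gain and a grey line joining both means of a probe. Neighbouring probes took unlike values in the loci with many probes, with means over both groups between -1.87 and 1.81, while 8 of the 9 probes at 55.7 Mb lay higher in low-gain.

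Beneath these flat means single probes ranged widely, as the plot of the 6 profiles shows. Means over both groups had an SD over probes of 0.18 at the 55717287 locus, 0.55 at 37815187, 0.58 at 51950175, 0.59 at 68309110, 0.76 at 63743531 and 0.84 at 52668311. Neighbouring probes of a locus resembled each other little, with a correlation of each probe's mean with that of the next of -0.26 to 0.18. Probes also differed by length, which on this array runs from 45 to 60 bp on chromosome 13. The 94 shortest averaged 0.11 and the 67 longest -0.27 (SD over probes 0.50 and 0.60), and over all 263 probes length correlated with the mean at r = -0.26, against -0.29 over the whole array. Enriched signals stood well above background in 78.6% of the values of the shortest probes and 59.3% of those of the longest. The part of this in their means was not tested.

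The profile differed from 0 at 15 of the 263 probes (6 above and 9 below, 5.70%), near the 5.54% of all 10249 probes (1.31% above and 4.23% below; limma, adjusted p under 0.05). Those 15 were spread over 5 loci, with 6 at 63743531, 4 at 68309110, 2 each at 37815187 and 51950175, 1 at 52668311 and 0 at 55717287. The highest mean, 1.81 (standard error 0.45, adjusted p = 0.0499), was at the probe starting at 63758674, with 0.026, 0.81, 0.15 and 1.78 in high-gain heifers 1 to 4, against 0.42, 2.30, 4.37 and 4.62 in low-gain heifers 5 to 8. The next, at 63750230 (1.60, adjusted p = 0.0489), had 0.32, 0.83, 0.49 and 1.33 in high-gain, against 0.17, 2.04, 3.73 and 3.92 in low-gain heifers. Both means thus joined unlike values, and the largest came from low-gain heifers 7 and 8. These are bright probes, with mean log2 input signals of 15.3 and 14.1, and with loess neither passed, at 0.69 and 0.71 (limma, adjusted p = 0.159 and 0.145).

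Of the other high probes, the one at 37816074 passed (limma, adjusted p = 0.0479), but neither of its channels was well above background on any array, so no level is given. The same holds for the probe at 52674022, which missed the threshold (limma, adjusted p = 0.0763). The probe at 68323242 (1.133) missed it too (limma, adjusted p = 0.113). It passed without low-gain heifer 5 (1.499, adjusted p = 0.0220), as did 18.5% of the probes of the array in that fit. At the low end, the probe at 52675387 stood at -1.66 (standard error 0.27, adjusted p = 0.0167) with all 8 arrays below 0. It held -2.06, -2.22, -0.13 and -1.50 in high-gain heifers 1 to 4, against -1.90, -1.41, -1.73 and -2.31 in low-gain heifers 5 to 8, so both groups were low and overlapped. The lowest mean was at 63763804 (-1.87, adjusted p = 0.0401), where high-gain heifer 1 alone lay above 0, at 0.85. Those at 68316914 (-1.57) and 68317084 (-1.55) are neighbours and both passed (limma, adjusted p = 0.0389), again with high-gain heifer 1 alone above 0, at 0.35 and 0.21. The probe at 68331794 (-1.48) did not pass (limma, adjusted p = 0.114). It did without low-gain heifer 5 (-1.91, adjusted p = 0.0336), again in the fit where 18.5% of the probes of the array passed. Each of the 7 calls made with all heifers was lost without at least 1 heifer, that at 52675387 without low-gain heifer 7 or 8 (limma, adjusted p = 0.0556 and 0.0588). Leaving out any of low-gain heifers 6, 7 and 8 or high-gain heifers 2, 3 and 4 ended each of the others, with adjusted p up to 0.132, as did leaving out high-gain heifer 1 for the 3 high probes. Over the whole array 5.54% of probes passed with all heifers. That share was 0.712% to 0.732% without low-gain heifer 6, 7 or 8, and 1.41% to 4.18% without a high-gain heifer. None of the 7 held with slide column as a block or with a robust trended fit, where 52675387 had adjusted p = 0.07002 and 0.0706 (limma) and 0.41% and 0.254% of the probes of the array passed.

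Regions, meaning 3 or more neighbours whose starts lay no more than 1000 bp from one to the next, took in 241 of the 263 probes and numbered 24. None passed the test against 0 in the profile, where 12.9% of the 960 regions of the array did (3.33% above and 9.58% below, limma). Their means ran from -0.41 at 37854534 to 37856451 (5 probes, standard error 0.15, limma, adjusted p = 0.0796) to 0.33 at 37831962 to 37832671 (3 probes, standard error 0.16). Both ends lay in the same locus, and 2 of the 5 probes at 37854534 had no enriched signal well above background on any array. The region at 37854534 stood at -0.44, -0.43, -0.48 and -0.14 in high-gain heifers 1 to 4, against -0.56, -0.72, 0.46 and -0.96 in low-gain heifers 5 to 8. It was below 0 on 7 of 8 arrays, and without low-gain heifer 7 its mean was -0.56 and passed (limma, adjusted p = 0.0266), as did 6.56% of the regions of the array in that fit. The other low means were -0.31 at 37857675, -0.21 at 37850273, -0.19 at 37815187 and -0.17 at 63746585. Other high means were 0.32 at 37837361, 0.29 at 55717287, 0.25 at 63757465 and 0.24 at 63765123.

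Between the feeding groups the locus at 55717287 to 55730264 had the largest difference of the 6. Its mean was 0.030, -0.45, 0.056 and 0.039 in high-gain heifers 1 to 4, against 0.15, 0.73, 0.63 and 0.40 in low-gain heifers 5 to 8. Every high-gain heifer thus lay below every low-gain heifer, with high-gain heifer 2 lowest and low-gain heifer 5 nearest to the high-gain range. The group means were -0.083 ± 0.25 for high-gain, against 0.48 ± 0.26 for low-gain (SD, n = 4 each). High-gain minus low-gain was -0.56 (standard error 0.16), which did not pass over 100 loci (limma, adjusted p = 0.184). It was the smallest p of the 6 loci, so its size tends to be overstated.

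At the 55717287 locus the difference lay in the enriched channel, which differed by -0.56 (standard error 0.18, limma, adjusted p = 0.160) and, without low-gain heifer 5, by -0.76 (adjusted p = 0.00172, where 9% of the loci of the array passed), while the input channel differed by 0.0041 (standard error 0.13). Slide row 1 alone gave -0.65 and slide row 2 alone -0.47. Without low-gain heifer 5 it was -0.67 and passed (limma, adjusted p = 0.0387), as did 11% of the 100 loci of the array in that fit. With any other heifer left out instead, it was -0.61 to -0.44 and did not pass (limma, adjusted p = 0.0522 to 0.534). Over probes well above background in both channels on all arrays it was -0.57 and passed (limma, adjusted p = 0.0431), as did 5% of the loci. That setting also centred each array on the kept probes, so its zero point differs. With normexp background correction it was only -0.060 (adjusted p = 0.550). Relative to the mean of the other 5 loci of the same array it was -0.65 (two-sided exact permutation p = 0.0286, the smallest possible, and 0.0857 after adjustment over the 6 loci).

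**Figure D2:**
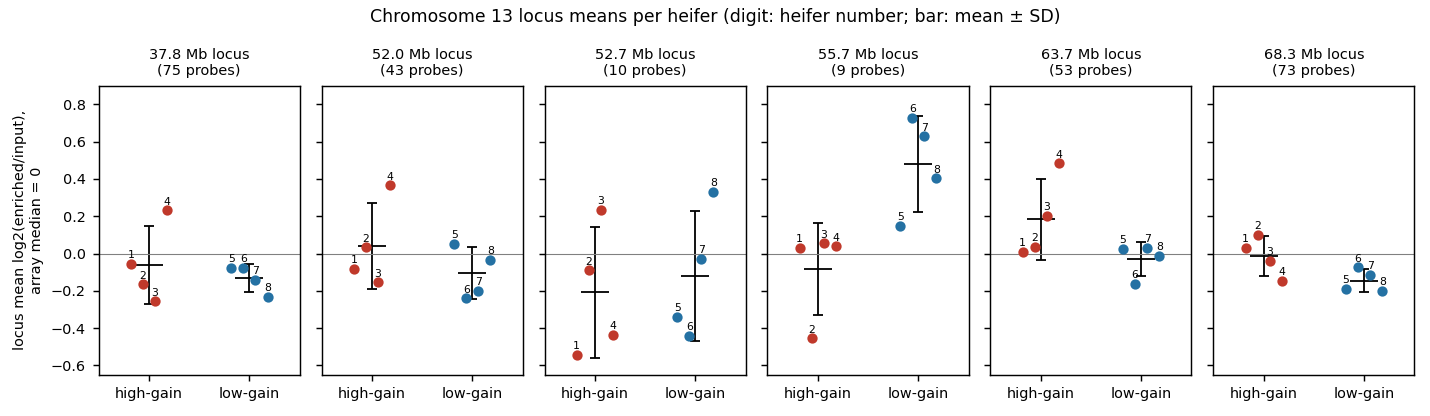
Mean log2(enriched/input) of each chromosome 13 locus in each heifer (vertical axis, array median = 0), with 1 panel per locus, high-gain left and low-gain right, digits for heifer numbers and bars for the group mean ± SD (n = 4). Only the panel at 55.7 Mb has groups that do not overlap, with high-gain at or under 0.056 and low-gain at or above 0.15.

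In all, 8 probes of this locus lay lower in high-gain heifers and 1 lay higher. The first 3, within 542 bp, differed by -0.50, -0.91 and -1.17, and formed a region that averaged 0.018, -0.46, 0.38 and -0.49 in high-gain heifers 1 to 4, against 0.39, 0.90, 0.92 and 0.66 in low-gain heifers 5 to 8. The groups there came close, at 0.38 in high-gain heifer 3 and 0.39 in low-gain heifer 5, but did not overlap. The region differed by -0.86 (standard error 0.26, limma, adjusted p = 0.226), and by -0.97 without low-gain heifer 5 (adjusted p = 0.0657). It did so by -0.86 in slide row 1 alone, by -0.85 in slide row 2 alone and by -0.26 with normexp. The last of its probes, starting at 55717783, was the only one of the locus with an unadjusted p under 0.05 (-1.17, standard error 0.46, limma, adjusted p = 0.351). It had -0.70, -0.74, 0.49 and -0.53 in high-gain heifers 1 to 4, against 0.63, 0.55, 1.47 and 0.55 in low-gain heifers 5 to 8. Its enriched channel was well above background on only 1 high-gain and 2 low-gain arrays.

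Farther along the locus the differences were smaller. The probe at 55719239 differed by -0.65 (standard error 0.43), and the first 3 of the 4 probes from 55722074 to 55723214 by -0.70, -0.56 and -0.32. No size is given for the fourth, whose enriched channel was not well above background on any low-gain array. As a region those 4 averaged -0.040, -0.42, 0.011 and 0.43 in high-gain heifers 1 to 4, against -0.089, 0.73, 0.73 and 0.61 in low-gain heifers 5 to 8. Low-gain heifer 5 lay inside the high-gain range there, apart from the other 3 low-gain heifers, and the difference of -0.50 did not pass (limma, adjusted p = 0.405), nor did that of -0.70 without low-gain heifer 5 (adjusted p = 0.101). The last probe, at 55730219 and more than 7 kb from its neighbour, differed by 0.18 (standard error 0.43), opposite to the rest. Differences at consecutive probes correlated at r = 0.49 in this locus of 9 probes, against -0.30 to -0.035 in the other 5.

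**Figure D3:**
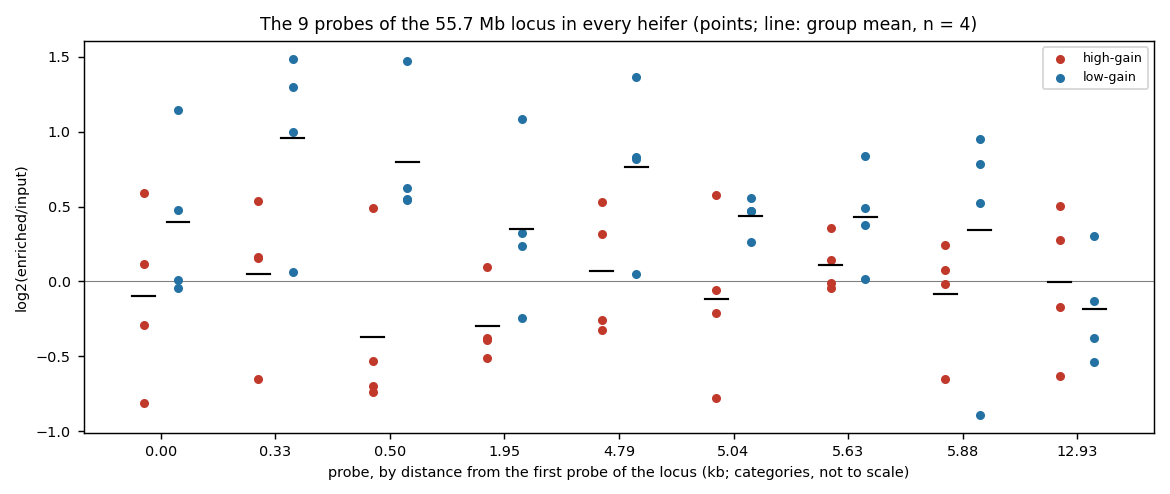
Log2(enriched/input) of the 9 probes of the locus at 55.7 Mb in every heifer (points), ordered by distance from the first probe in kb, with high-gain left and low-gain right at each probe and a line for the group mean (n = 4 each). The high-gain mean is the lower one at 8 of the 9 probes, and the points of both groups overlap at every probe but the one at 0.50 kb.

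Among the other 5 loci no difference passed and all groups overlapped. The locus at 63743531 had 0.010, 0.036, 0.20 and 0.48 in high-gain heifers 1 to 4, against 0.025, -0.16, 0.029 and -0.012 in low-gain heifers 5 to 8. High-gain heifers 2, 3 and 4 lay above every low-gain heifer and high-gain heifer 1 did not. It differed by 0.21 (standard error 0.13, limma, adjusted p = 0.433), and by 0.27 relative to the mean of the other 5 loci (two-sided exact permutation p = 0.0286, adjusted p = 0.0857). Those other 5 include the locus at 55717287, which differed by -0.56, so the 0.27 is not independent of that difference. The locus at 68309110 had 0.032, 0.10, -0.038 and -0.15 in high-gain, against -0.19, -0.074, -0.11 and -0.20 in low-gain heifers. There 3 high-gain heifers lay above every low-gain heifer, and the difference was 0.13 (standard error 0.11, limma, adjusted p = 0.571).

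At 51950175 the values were -0.081, 0.033, -0.15 and 0.37 in high-gain heifers 1 to 4, against 0.053, -0.24, -0.20 and -0.034 in low-gain heifers 5 to 8, with high-gain heifer 4 the highest. The difference was 0.15 (standard error 0.14, limma, adjusted p = 0.591). It was -0.062 over probes well above background in both channels, with each array centred on the kept probes. At 37815187, the locus with the most probes, the difference was 0.070 (standard error 0.13, adjusted p = 0.772), with -0.055, -0.17, -0.26 and 0.23 in high-gain heifers, against -0.077, -0.076, -0.14 and -0.23 in low-gain heifers. Its direction turned without high-gain heifer 4 (-0.027). The 10-probe locus at 52668311 spread widely in both groups, with -0.54, -0.089, 0.23 and -0.44 in high-gain, against -0.34, -0.44, -0.027 and 0.33 in low-gain heifers. It differed by -0.089 (standard error 0.20, limma, adjusted p = 0.808), while its enriched and input channels differed by 0.29 and 0.38 (standard errors 0.17 and 0.15), the input with an unadjusted p of 0.0247 and an adjusted p of 0.576 (limma). Its direction turned when high-gain heifer 1 (0.022) or low-gain heifer 8 (0.061) was left out.

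None of the 6 loci and none of the 24 regions passed between the groups, against 0% of the 100 loci and 0.104% of the 960 regions of the array (limma). An unadjusted p under 0.05 was reached by 1 locus of 6, lower in high-gain, against 15% of all loci (4% higher and 11% lower). Of the regions 3 of 24 reached it (1 higher and 2 lower, 12.5%), against 14.5% of all regions (6.25% higher and 8.23% lower). Groups did not overlap at that locus, against 5% of all loci (2% higher and 3% lower), nor at 2 regions (1 higher and 1 lower, 8.33%), against 6.25% of all regions (2.6% higher and 3.65% lower). High-gain lay above low-gain at 4 of the 6 loci and 14 of the 24 regions, against 46% of all loci and 47.9% of all regions. The median difference of the 24 regions was 0.061, against -0.025 over all 960. One of the 2 lower regions is the first of the 55717287 locus. The other, at 37857675 to 37858907 (5 probes), had -0.067, -1.06, -0.53 and -1.78 in high-gain heifers 1 to 4, against -1.04, 0.83, 0.11 and 1.099 in low-gain heifers 5 to 8. Of the 5 probes of that region, 3 had no enriched signal well above background on any low-gain array, and 2 of them none on any array. Low-gain heifer 5 sat among the high-gain heifers. The difference of -1.11 (standard error 0.46, limma, adjusted p = 0.299) went with -0.32 in the enriched channel and 0.80 in the input channel. Without low-gain heifer 5 it was -1.54 (limma, adjusted p = 0.0628).

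The region higher in high-gain heifers lay at 63751235 to 63754999 (7 probes). It averaged 0.16, 0.29, 0.044 and 0.71 in high-gain heifers 1 to 4, against -0.099, -1.12, -0.19 and -0.67 in low-gain heifers 5 to 8, with no overlap. The difference was 0.82 (standard error 0.28, limma, adjusted p = 0.226), with 0.84 in slide row 1 alone and 0.81 in slide row 2 alone, and 0.96 without low-gain heifer 5 (adjusted p = 0.0659). Its probes did not move as 1 block. The 3 probes at 63752398, 63753927 and 63754949 differed by 3.31, 2.25 and 1.90, while the other 4, some of which lay between them, differed by -0.72 to -0.21. Of the 7, 1 probe had no enriched signal well above background on any high-gain array, so its difference is no measured size. At 63752398 the low-gain heifers split, with 0.13, 0.20, -0.64 and 1.77 in high-gain heifers 1 to 4, against -0.14 in low-gain heifer 5 and -4.69, -3.15 and -3.78 in low-gain heifers 6, 7 and 8. The same split held at 63753927, with 0.52, 0.91, 0.42 and 0.78 in high-gain, against 0.45 in low-gain heifer 5 and -2.70, -1.36 and -2.75 in the other 3. Without low-gain heifer 5 these differences were 4.24 and 2.93 and passed (limma, adjusted p = 0.0272 and 0.0287). The region differed by 0.24 without the tenth of probes with the brightest input and by 0.39 with loess (limma, adjusted p = 0.689 and 0.562).

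Further regions at the ends of the ranking had overlapping groups. The differences were 0.56 at 68324940 to 68329195 (13 probes), 0.52 at 63746585 to 63748757 (5 probes), 0.46 at 63759684 to 63763859 (8 probes) and 0.38 at 37815187 to 37823936 (21 probes). They were -0.50 at 63757465 to 63758722 (4 probes) and -0.37 at 68309110 to 68312098 (11 probes). Adjusted p-values of these 6 were 0.351 to 0.588 (limma). At 37815187 low-gain heifer 5 lay apart from its group, and without it the difference was 0.44 (limma, adjusted p = 0.360). At 63746585 low-gain heifers 7 and 8 stood apart, at -0.69 and -1.39, from low-gain heifers 5 and 6 at 0.14 and 0.21.

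No probe passed, on chromosome 13 or on the array (limma, smallest adjusted p = 0.249 among the 263, 0% of 10249). An unadjusted p under 0.05 was found at 35 probes (13.3%), 24 of them with high-gain above low-gain and 11 below, against 12.4% of all 10249 probes (7.21% higher and 5.23% lower). The groups did not overlap at 22 probes, 12 higher and 10 lower, or 8.37%, against 6.87% of the 10222 probes of the array with values on all arrays (2.67% higher and 4.2% lower). High-gain lay above low-gain at 121 of the 263, against 44.7% of all probes. The median difference over the 263 was -0.14, against -0.13 over the array. Every locus but that at 55717287 held probes of both directions among the 35, with 9 higher and 4 lower at 37815187, 7 and 1 at 68309110, 5 and 3 at 63743531, 2 and 1 at 51950175, and 1 and 1 at 52668311. Nowhere did neighbours within 1000 bp reach that p together in 1 direction. Leaving out low-gain heifer 5 gave 37 higher and 24 lower (14.1% and 9.13%), against 10.9% and 11.9% of all probes. The lower ones numbered 7 when high-gain heifer 1 was left out and 6 when low-gain heifer 8 was (2.66% and 2.28%), against 3.82% and 2.94% of all probes. Slide row 1 alone gave 7 higher and 4 lower (2.66% and 1.52%), against 4.66% and 1.59%.

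Among probes higher in high-gain heifers, the one at 68323510 had the largest difference of the 5 with the highest moderated t. Its values were 1.47, -0.24, 1.09 and 1.65 in high-gain heifers 1 to 4, against -0.35, -2.54, -1.96 and -2.72 in low-gain heifers 5 to 8. It differed by 2.88 (standard error 0.65, limma, adjusted p = 0.249), with high-gain heifer 2 and low-gain heifer 5 nearest to each other. The probe at 51963280 had -0.20, -0.18, -0.069 and 0.56 in high-gain, against -0.87, -3.44, -2.41 and -2.99 in low-gain heifers, and differed by 2.45 (standard error 0.58, adjusted p = 0.262). In both, low-gain heifers 6, 7 and 8 were far below the array median and low-gain heifer 5 lay nearer to it.

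At 37836336 low-gain heifer 5 lay with its group. The values there were 0.042, 0.22, 0.80 and 1.55 in high-gain heifers 1 to 4, against -1.16, -1.22, -1.59 and -2.31 in low-gain heifers 5 to 8, a difference of 2.22 (standard error 0.49, limma, adjusted p = 0.249). The probe at 63760902 likewise had 1.02, 0.46, 0.11 and 0.88 in high-gain, against -0.80, -1.04, -1.59 and -1.83 in low-gain heifers, a difference of 1.93 (standard error 0.43, limma, adjusted p = 0.249). At 37819295 the values were 1.24, 0.40, 1.16 and 1.11 in high-gain, against -0.12, -0.93, -1.15 and -0.94 in low-gain heifers, a difference of 1.76 (standard error 0.42, limma, adjusted p = 0.262). In these 5 probes the enriched channel differed by 1.40 to 2.75 and the input channel by -0.63 to 0.45. Without low-gain heifer 5, 12 of the 263 probes passed on chromosome 13 (4.56%; 11 higher and 1 lower, limma), against 3.01% of all 10249 probes (2.61% higher and 0.39% lower). Among the 12 were those at 68323510, 51963280, 63760902 and 37819295 (limma, adjusted p = 0.0291, 0.0238, 0.0418 and 0.0403).

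Of the 5 lower probes with the most negative moderated t, 4 rested on dim signals and are given without a size. Those at 68310182, 52670218 and 63768965 had no enriched signal well above background on any array (limma, adjusted p = 0.249, 0.272 and 0.336). That at 37848261 had 1 such array, a high-gain one (limma, adjusted p = 0.307), and was the 1 lower probe that passed without low-gain heifer 5 (adjusted p = 0.0438). The probe at 37831962 was measured on more arrays, with an enriched channel well above background on 4 high-gain and 3 low-gain arrays. It had 0.14, -0.093, -0.053 and 0.10 in high-gain, against 0.51, 1.06, 0.99 and 1.90 in low-gain heifers, a difference of -1.09 (standard error 0.42, limma, adjusted p = 0.345).

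Over all 263 probes the difference moved with the input signal, at r = 0.43 (rho = 0.47), close to the r = 0.42 over all 10249 probes of the array. The points share their arrays and their probe brightness, so this is a description. It was weaker, at r = 0.24 (rho = 0.35), over the 111 probes well above background in both channels on all arrays, against r = 0.36 over the 4495 such probes of the array. The 34 probes whose enriched channel was not well above background on any array have no measured size, so no level or difference is given for them. The 111 averaged 0.15 for high-gain, against -0.041 for low-gain, and their median difference was -0.10, against -0.074 for the 4495, so their mean and median difference had opposite signs. Among the 24 probes higher at unadjusted p under 0.05, 13 had an enriched channel well above background on all 8 arrays and 0 on none. Among the 11 lower ones these numbers were 3 and 3. Over the array 441 of the 739 higher probes had both channels well above background on all arrays. Only 1 was dim in the enriched channel on all arrays. Of the 536 lower ones these numbers were 142 and 210. Among dim probes 8.82% were lower at that p on chromosome 13, against 18.2% over the array.

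**Figure D4:**
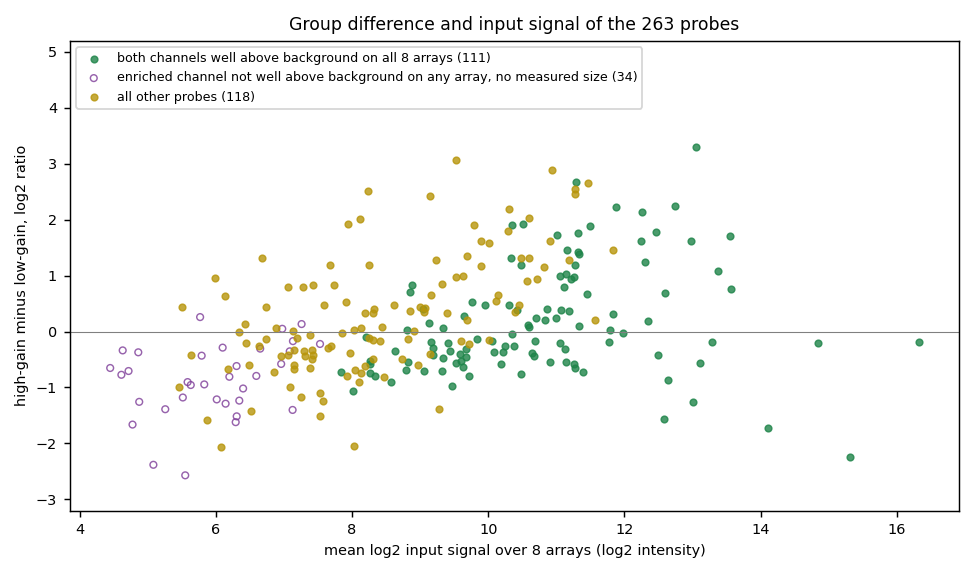
Difference in log2(enriched/input), high-gain minus low-gain (vertical axis), of the 263 chromosome 13 probes against their mean log2 input signal over 8 arrays (horizontal axis), coloured by how their channels stood against background. Differences of the 111 probes well above background in both channels on all arrays correlated weakly with the input signal (r = 0.24), with the brightest of them below 0, and open points mark the 34 probes whose enriched channel was not well above background on any array, at heights that are no measured size.

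Averaged over all 263 probes, chromosome 13 stood at -0.038, -0.026, -0.057 and 0.17 in high-gain heifers 1 to 4, against -0.069, -0.11, -0.078 and -0.10 in low-gain heifers 5 to 8. The groups did not overlap, although 3 of the high-gain values lay close to the low-gain ones. Means were 0.012 ± 0.10 for high-gain, against -0.089 ± 0.018 for low-gain (SD, n = 4 each), a difference of 0.10 (two-sided exact permutation p = 0.0286, the smallest possible). It missed the threshold without any one of the 4 low-gain heifers (0.095 to 0.11, exact permutation p = 0.0857 each), was 0.049 without high-gain heifer 4, 0.056 in slide row 1 alone and 0.15 in slide row 2 alone. The median probe differed by 0.026 (p = 0.829), the mean of the 6 locus means by -0.015 (p = 0.800), and the chromosome mean relative to all other probes by 0.074 (p = 0.486, each a two-sided exact permutation test with n = 4 per group). Against those other probes of the same array chromosome 13 was higher on 6 of 8 arrays, by 0.077 ± 0.12 (SD, n = 8, two-sided exact sign-flip p = 0.0781). The number of arrays limits the precision of each of these values.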

How the data were processed

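Two-colour arrays of 4 high-gain and 4 low-gain heifers were analysed, and replicates are separate heifers per the labels. Captured DNA carried the red dye and input DNA the green one, 3 µg each, per the labels' protocols. Dyes were not swapped, so a dye effect shared by all arrays remains in each ratio. The deposited intensity values are processed signals of Agilent Feature Extraction 10.7.1.1 (protocol ChIP_107_Sep09), with probe positions on Btau_3.1, per the file headers. In the authors' deposited table each log2 value matched a log2 ratio formed from background-subtracted medians, within 0.0001 at all 80945 spots where both existed, and array medians ran from -1.82 to 0, so it is not centred. The scanner's deposited log10 ratio served as an alternative.

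Log2(red/green) was formed from the processed signals, leaving out 28 outlier-flagged spots (0 on chromosome 13), and centred by array median, which removes any change shared by all probes. Two-sided limma 3.58.1 fits (R 4.3.3, lmFit, eBayes) covered the whole array at 3 levels: probes, regions (3 or more probes with steps of at most 1000 bp) and loci (3 or more probes, split at gaps over 20000 bp, which kept 100 of 104). For the profile, the average of the group means was set against 0. Single values per array were tested by exact permutation or exact sign-flip. The scripts were tested on simulated data. One slide, scanned on 1 date, held all arrays, so slide row and column were the batches tried, and each row held 2 heifers of each group. Slide column 1 held only high-gain heifers 1 and 3, and column 3 only low-gain heifers 5 and 8. Only columns 2 and 4 held both groups, so column is partly confounded with feeding group. No batch of capture or labelling is given in the labels used here.

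Every locus is named. Regions and probes named are the 5 highest and 5 lowest by moderated t between groups and the 5 highest and 5 lowest in the profile. Further probes of the region at 63751235 and of the locus at 55717287 were named after their values were seen. The members and lists were chosen with earlier results of these data known.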

Additional observations from a re-analysis of the deposited data

Results flagged for a closer look

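Of 92 groups of 4 heifers checked (5 chromosome 13 measures per array, the 6 loci and the named regions and probes), 6 held 1 heifer far from the other 3, with a gap to the nearest beyond Dixon's 95% critical share of the group's range. Chance flags about 1 in 20 groups, and the groups share heifers. High-gain heifer 4 had a chromosome 13 mean of 0.167, against -0.057 to -0.026 in the other high-gain heifers, and a value of -0.142 in the region at 37854534, against -0.478 to -0.427. High-gain heifer 2 had -0.455 at the locus at 55717287, against 0.030 to 0.056, and 0.404 at the probe at 37819295, against 1.11 to 1.24. Low-gain heifer 5 had -0.193 in the region at 37815187, against -0.466 to -0.423 in the other low-gain heifers, and -0.0889 in the region at 55722074, against 0.605 to 0.735.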

How the results depend on the processing

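No paired analysis was possible because heifers 1 to 4 and 5 to 8 share no numbers. The cause of the changes below was not tested, and shares of the whole array under the same setting stand in brackets. Settings that filtered probes also moved the zero point, since each array was then centred on the median of the kept probes. The 111 chromosome 13 probes above background in both channels differed by 0.11 with that centring and by 0.19 centred over all probes. The filter and the centring were not tested apart. Probes passing between groups (0) were 14 of 263 with array weights (3.22%) and 0 to 12 leaving out 1 heifer (3.01% without low-gain heifer 5, the only heifer whose absence gave any). Regions passing (0) were 4 of 24 with array weights (20%) and 0 without any single heifer. Loci passing (0) were 1 of 6 with array weights (31%, adjusted p = 0.00576), 1 over probes above background in both channels (5%) and 0 to 1 leaving out 1 heifer (11% without low-gain heifer 5). Probes at unadjusted p under 0.05 were 41 higher and 39 lower with array weights (15.1% and 16%), 13 and 7 of 111 above background in both channels (9.39% and 7.61%), 7 and 4 within slide row 1 (4.66% and 1.59%), and 19 to 37 and 6 to 24 leaving out 1 heifer (4.33% to 10.9% and 2.94% to 11.9%). Profile regions (0) were 16 with the enriched channel alone (66%), 5 with loess (26.4%), 4 with normexp (29.5%), 2 above background in both channels (10.4%), 1 each with the authors' table (12%), the scanner's log ratio (17.3%), the input filter (18.1%), array weights (33.2%), 500 bp spacing (14%) and region medians (2.92%), and 0 to 1 leaving out 1 heifer (6.56% without low-gain heifer 7). Loci passing in the enriched channel (0) were 0 to 1 leaving out 1 heifer (9% without low-gain heifer 5).

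The chromosome mean difference (0.10, p = 0.0286) missed the threshold with scaled arrays (0.0583), quantile normalisation (0.0695), loess (0.0316), normexp (0.21), the authors' table (0.13), the scanner's log ratio (0.12), the enriched channel (0.0575), the input filter (0.0625), both channels above background (0.11), probe median (0.0258) and relative to the other probes (0.0743), reversed as the mean of locus means (-0.0148), and was 0.0489 to 0.12 leaving out 1 heifer (p = 0.0857 without any one low-gain heifer, exact permutation). It could not pass with slide row as a block (0.10), slide column as a block (0.16) or within rows (0.0557 and 0.15). The smallest exact permutation p possible was 0.0556 with the row block and 0.5 with the column block, and 2 against 2 cannot pass within a row. Against other probes (0.0769) chromosome 13 passed with normexp (0.058), the scanner's log ratio (0.0801), the input filter (0.0888) and both channels above background (0.0994), reversed in the enriched channel (-0.0217), and was 0.0377 to 0.0941 leaving out 1 heifer. Of those fits, only the one without low-gain heifer 7 passed (0.0941, exact sign-flip p = 0.0469). The enriched share above background differed by 7.41 and 15.02 points within rows and 7.29 to 13.2 leaving out 1 heifer, and the input share by -3.42 within row 1 and -2.25 to 2.95 leaving out 1 heifer.

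Differences reversed at locus 37815187 with scaling (-0.0158), loess (-0.0901), within row 1 (-0.0332) and leaving out 1 heifer (-0.0273 to 0.14). At locus 52668311 they did so with loess (0.0262), normexp (0.18), the authors' table (0.17), the scanner's log ratio (0.0123), the enriched channel (0.29), the input filter (0.23), within row 1 (0.0744) and leaving out 1 heifer (-0.24 to 0.0611), and at locus 51950175 above background in both channels (-0.0622). Of regions, 63746585 reversed with loess (-0.0168) and within row 1 (-0.13), 68309110 with normexp (0.0251) and within row 1 (0.30), and 63757465 without the brightest input (0.17). Profile means reversed with the enriched channel alone, which measures brightness, at regions 37831962 (-0.48), 37837361 (-0.35), 55717287 (-0.39), 37854534 (0.0334), 37850273 (0.62), 37815187 (0.79) and 63746585 (1.80) and probes 37816074 (-3.02), 52674022 (-3.04) and 68316914 (0.75). They also reversed at regions 37857675 with the input filter (0.0878) and array weights (0.00685), 63746585 above background in both channels (0.017) and within row 1 (0.11), 63757465 without the brightest input (-0.29) and within row 1 (-0.11) and 37837361 within row 2 (-0.0136), and at probes 68323242 with loess (-0.13) and 37816074 in the authors' table (-0.082). Of the 239 profile values of the 10 named probes, 94 lost the call, and that at 52675387 was lost in 7 of 24, as far as -0.13 with the enriched channel alone. The 10 named probe differences kept their direction in all 239 values. The locus at 55717287 stayed below 0 in all 25 alternatives (-0.89 to -0.0596, adjusted p 0.00576 to 0.569). Signal over background limits the 34 probes dim in the enriched channel on all arrays.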
